A study of Mus musculus with 6 samples.

Results

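Acan, Hapln1, Comp, Matn1, Matn3, Matn4, Vcan, Cilp, Cilp2 and Snorc encode the non-collagenous proteins and proteoglycans of the cartilage matrix. These 10 genes were chosen by name from the 55416 genes of the deposited table. They were followed in primary mouse chondrocytes transfected with the scrambled siNC (n = 3 libraries, genotype given as WT) or with siPkm2 (n = 3 libraries, given as a PKM2 knockdown), an siRNA against the Pkm transcript, which encodes the glycolytic enzyme pyruvate kinase M. The cells came from knee joints and were grown with fetal bovine serum. The labels call the joints neonatal, whereas the study's methods describe mice several weeks old. The genotype field names other PKM numbers for siPkm2 replicates 2 and 3, and these libraries were taken as siPkm2 from their titles. Neither source says whether the cultures of a group came from separate animals, so the p-values cover only the spread between these libraries, which may be technical.

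Pkm was checked first. Its level was 2335, 2746 and 1674 CPM (counts scaled to the library total and TMM factor) in siNC replicates 1, 2 and 3, and 336, 541 and 309 CPM in siPkm2 replicates 1, 2 and 3, with no overlap. Its log2 fold change was -2.51 without (adjusted p = 0.0738) and -2.53 with the replicate number as a block (adjusted p = 0.00932), by edgeR. The counts do not separate the PKM1 and PKM2 transcripts. Library totals lay between 22317065 and 25691096 estimated counts, so depth was similar. Between 53.6% and 73.7% of genes differed beyond sampling noise in each pair of libraries within a group, and no library was a duplicate. Replicate 2 of both groups stood apart from the other libraries, and the fold changes of the members are given with and without it.

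Aggrecan (Acan) and versican (Vcan) are lecticans, large proteoglycans that carry chondroitin sulfate chains and bind hyaluronan. Link protein (Hapln1) locks aggrecan onto hyaluronan, and the aggregates hold the water that lets cartilage bear load. Cartilage oligomeric matrix protein (Comp) and the matrilins (Matn1, Matn3, Matn4) are multimeric adaptors between collagen fibrils and the aggregates. Cartilage intermediate layer proteins (Cilp, Cilp2) are secreted glycoproteins first known from the middle layer of articular cartilage, and Snorc is a small transmembrane proteoglycan of chondrocytes. In cartilage, aggrecan is the main proteoglycan of mature tissue, while versican is known from the precartilage mesenchyme and from fibroblastic cells.

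The members share domains by the deposited Pfam annotation. The link domain, which binds hyaluronan, is annotated in Acan, Hapln1 and Vcan and in 16 genes of the whole table, 12 of which had enough counts to be tested. The coiled coil of matrilins is annotated in 4 genes of the table, 3 of them members. The C-terminal thrombospondin domain of Comp is annotated in 5 genes. Cilp and Cilp2 share a WxxW repeat found in 6 genes, and the domain of Snorc occurs in 1 gene, Snorc itself.

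Sequence was examined for matches to the siRNAs, because an siRNA's seed (bases 2 to 8 of its antisense strand) can also bind unintended mRNAs through their 3′ untranslated regions. Of 3 designs against Pkm the study chose siPkm2 #3, but no source used here says which was in the sequenced cultures. The antisense strands given for the study are shown 5′ to 3′, with the seed in capitals.
siNC: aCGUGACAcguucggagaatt
siPkm2 #1: aUGGUACAaaugaugccagtt
siPkm2 #2: aCAUUCUUgauggucucugtt
siPkm2 #3: uGUUUCUCcagacagcaugtt
A complement of the siPkm2 #3 seed was present in 2 of the 10 members, Hapln1 and Matn3, when each gene's longest 3′ untranslated region was read, and in 17.9% of 13273 tested genes. The same 2 members held the site of siPkm2 #2 (17.4% of the tested genes), Matn3 alone held that of siNC (3.51%), and no member held that of siPkm2 #1 (11.7%). The windows around the siPkm2 #3 site are shown with the site in capitals, since these members return in the siPkm2 comparison.
Hapln1-201, from base 3191 of 3503 of the 3′ untranslated region: agtttgagGAGAAACaatgtgta
Matn3-201, from base 1012 of 1453: taacagctGAGAAACtgaaagaa
Acan, Vcan, Comp, Matn1, Matn4, Cilp, Cilp2 and Snorc held no match to any of the 3 siPkm2 seeds in this region. The region was short in some of them, with 263 bases in Matn4, 277 in Comp and 44 in Snorc. Regions as short as that of Snorc were left out of the shares over tested genes. A match is a description of the letters and not a measured site, and its part in any difference was not tested.

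Levels between genes were compared in TPM, which is scaled for transcript length. Matn1, Comp, Acan and Snorc were the most abundant members, and Cilp2 and Cilp the least. In siNC the group means ran from 952 ± 775 TPM (SD, n = 3) for Matn1 through Comp (871 ± 518), Acan (477 ± 356), Snorc (295 ± 210), Hapln1 (94.0 ± 56.9), Matn4 (49.3 ± 49.8), Vcan (21.1 ± 10.4), Matn3 (10.7 ± 9.99) and Cilp2 (1.02 ± 0.584) to Cilp (0.230 ± 0.244). Neighbours in this order overlapped in their ranges over the 3 libraries, apart from Cilp2 and Cilp. Within single libraries the order was steadier: Acan was above Snorc and Snorc above Hapln1 in all 3 siNC and all 3 siPkm2 libraries. In siPkm2, Comp stood first (1069 ± 492 TPM, SD, n = 3) and Matn1 second (992 ± 775), but Comp was above Matn1 in only 2 of the 3 libraries. Vcan stood below Matn4 by group mean in siNC and above it in siPkm2, where it was higher than Matn4 in all 3 libraries.

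**Figure D1:**
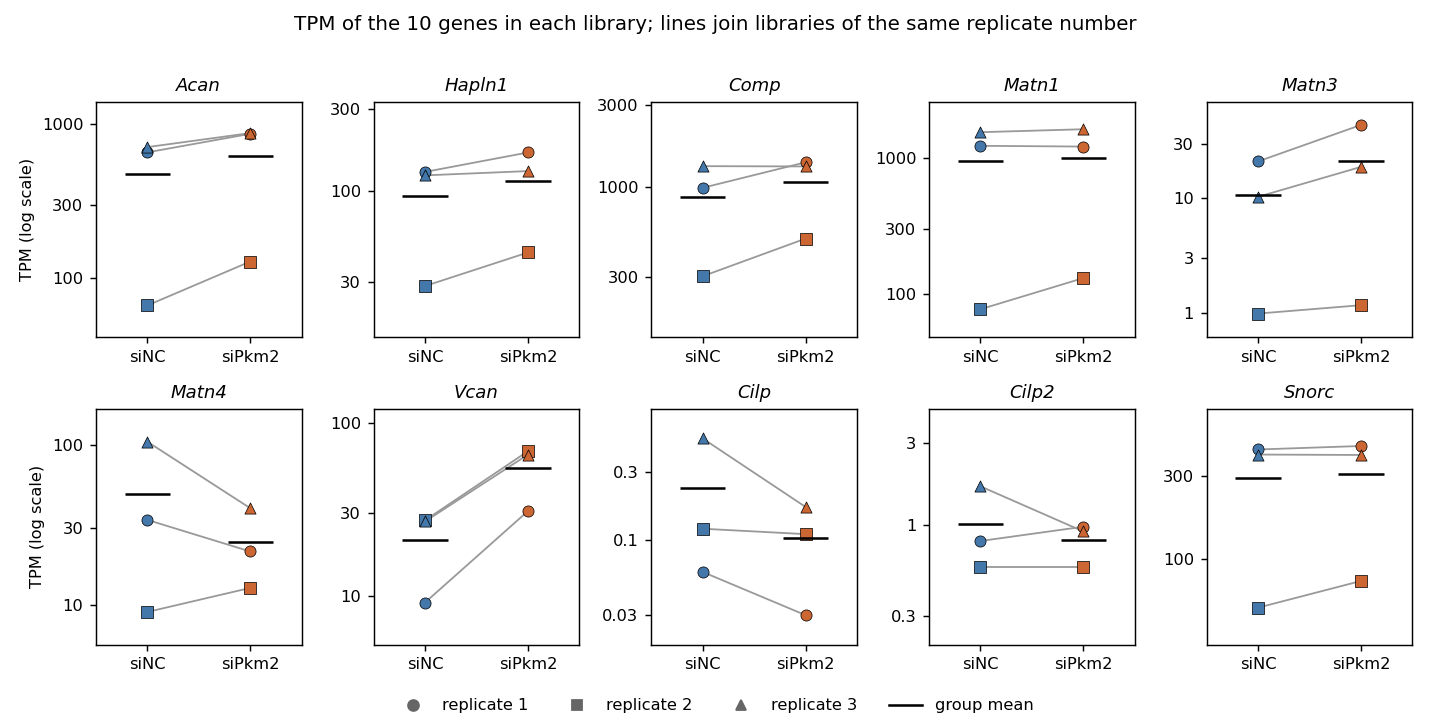
TPM on a log scale for each of the 10 genes, in siNC and siPkm2, where each point is a library, the marker gives the replicate number, grey lines join libraries of the same number and black bars are group means. Replicate 2 lies lowest in both groups for Acan, Hapln1, Comp, Matn1, Matn3, Matn4, Cilp2 and Snorc, and Vcan is higher in siPkm2 along all 3 lines.

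Replicate 2 of both groups held far less of the cartilage proteoglycans and adaptors than replicates 1 and 3. In 8 of the 10 members both replicate 2 libraries lay below the other 4 libraries in CPM, as they did in 18.4% of all tested genes. In siNC, replicate 2 was below the mean of replicates 1 and 3 by 19.6-fold for Matn1, 17.6-fold for Matn3, 11.1-fold for Acan, 8.69-fold for Snorc, 8.13-fold for Matn4, 4.81-fold for Hapln1 and 4.08-fold for Comp. In siPkm2 the same folds were 11.5 for Matn1, 28.6 for Matn3, 7.12 for Acan, 5.78 for Snorc, 2.51 for Matn4, 3.54 for Hapln1 and 2.80 for Comp. For 3 members both replicate 2 libraries were over 5-fold below each of the other 4, against 0.354% of all tested genes. They are Acan, Matn1 and Matn3. Vcan did not share this drop, and its replicate 2 libraries lay within the range of the others. By rank of TPM in the table, Matn1 stood between 98 and 137 in replicates 1 and 3 of both groups, and at 1908 and 1120 in replicate 2 of siNC and siPkm2. In bulk RNA, fewer cells of a type and less RNA per cell cannot be told apart.

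The make-up of the matrix transcripts differed in replicate 2 as well. The summed TPM of the 10 genes was 3498, 566 and 4248 in siNC replicates 1, 2 and 3, and 4183, 963 and 4475 in siPkm2. Matn1 made up 13.5% of this sum in replicate 2 of either group and between 29.0% and 36.5% in the other 4 libraries. Comp made up 53.8% and 52.2% in replicate 2 of siNC and siPkm2, and between 28.3% and 33.2% in the others. Vcan made up 4.83% and 7.14% in replicate 2, and between 0.261% and 1.47% in the others. The TPM of Acan was 71.7, 2.44 and 26.3 times that of Vcan in siNC replicates 1, 2 and 3, and 27.9, 1.87 and 13.3 times in siPkm2. Within each pair this ratio was lower in siPkm2, by 2.57-fold, 1.31-fold and 1.98-fold, but the groups overlapped.

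**Figure D2:**
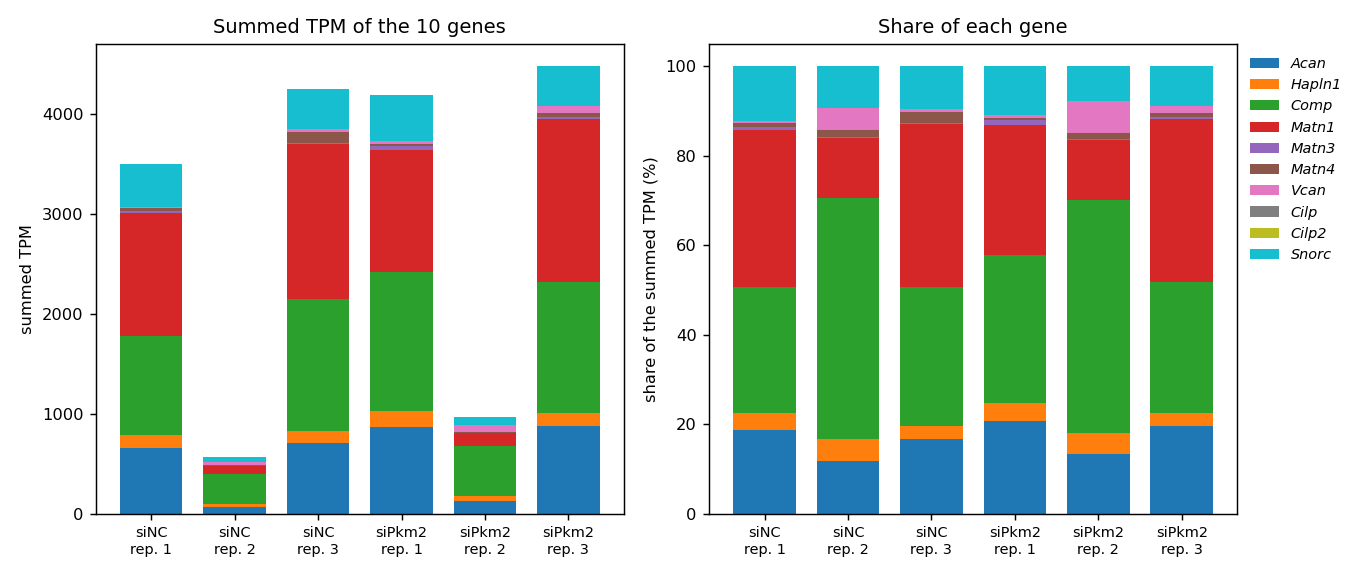
Stacked bars of the TPM of the 10 genes in each library, as summed TPM on the left and as the share of that sum in percent on the right. The bars of replicate 2 reach 566 and 963 TPM against 3498 or more in the other 4 libraries, and Comp takes the largest share in replicate 2 of both groups.

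Marker lists moved with replicate 2. The summed CPM of 9 other chondrocyte markers, among them Col2a1 and Sox9, was 52330, 11050 and 50350 in siNC replicates 1, 2 and 3, and 43110, 15120 and 41690 in siPkm2. That of 10 inflammatory genes (Il6, Lcn2, Saa3 and other cytokine-induced genes) was 38.6, 11420 and 80.4 in siNC and 203, 11740 and 189 in siPkm2. The summed CPM of 10 interferon-stimulated genes was 40.5, 1537 and 52.0 in siNC and 869, 2717 and 679 in siPkm2. That of 7 dedifferentiation markers (Col1a1, Fn1 and others) was also lowest in replicate 2 of each group, at 24520 in siNC and 29610 in siPkm2, against 39270 to 58880 in the other libraries. Fn1 made up most of this sum, and the markers did not move alike. Fn1 and Col5a1 were lowest in replicate 2 of each group. Col1a1 was lowest in replicate 1, at 2956, 3070 and 5727 CPM in siNC and 1404, 3164 and 3258 CPM in siPkm2, as was Col3a1. The part of these lists in the levels of the cartilage genes was not tested.
Chondrocyte markers were present in all libraries. Of the markers of other cells, 3 of 5 for macrophages (Adgre1, Ptprc, Itgam), 3 of 4 for endothelium (Pecam1, Cdh5, Kdr), 3 of 5 for muscle (Myh1, Myh4, Ckm) and 2 of 5 for osteoblasts (Bglap, Dmp1) were under 1 CPM in every library. The macrophage list summed to 57.7 and 35.4 CPM in replicate 2 of siNC and siPkm2 and to at most 12.9 CPM in the other libraries, the endothelial list to at most 1.98 CPM and the muscle list to at most 11.5 CPM. Nearly all of the macrophage sum in replicate 2 was Cd68, at 55.5 and 33.4 CPM in siNC and siPkm2, while Csf1r was at 2.14 and 1.83 CPM. The osteoblast list summed to between 25.7 and 376 CPM in siNC and between 19.2 and 141 CPM in siPkm2, and the hypertrophy list, which shares Ibsp with it, to between 518 and 1244 and between 200.4 and 1741 CPM. The 5 synovial lining markers summed to 130, 323 and 146 CPM in siNC and 326, 443 and 394 CPM in siPkm2. Every siPkm2 library lay above every siNC library, though siPkm2 replicate 1 (326) was barely above siNC replicate 2 (323). By edgeR without a replicate block, 4 of the 5 markers had positive log2 fold changes and 1 a negative one.

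**Figure D3:**
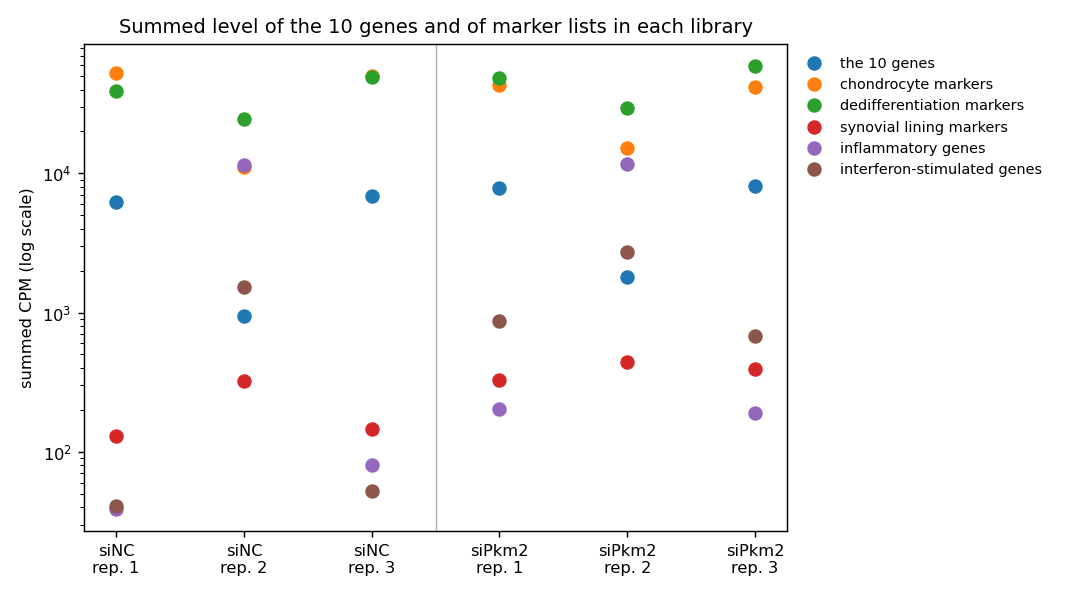
Summed CPM on a log scale of the 10 cartilage genes and of 5 marker lists in each of the 6 libraries, each point being 1 library. In replicate 2 of both groups the cartilage genes and chondrocyte markers are at their lowest and the inflammatory and interferon-stimulated genes at their highest.

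The comparison of siPkm2 with siNC asked how lowering Pkm bears on the transcripts of the cartilage matrix. Versican was the member with the clearest difference: Vcan was between 2.62-fold and 3.81-fold higher in siPkm2 in the replicate pairs. It was the only member whose groups did not overlap, while 12% of all tested genes were higher in siPkm2 without overlap. Acan, Hapln1, Comp and Matn3 were also higher in CPM in all 3 pairs, though by less, Matn1, Cilp2 and Snorc were higher in 2 pairs, Matn4 in 1 and Cilp in none. These 5 members that were higher in every pair stand beside 30.5% of all tested genes. In TPM the count was 4 of 10, because Comp was 1320 and 1315 TPM in siNC and siPkm2 replicate 3, and the direction for Snorc in pairs 1 and 3 also turned between CPM and TPM.

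By the quasi-likelihood test of edgeR without a replicate block, 0 of the 9 members tested were called, as were 0% of the 15269 genes. Among the members, 1 had an unadjusted p under 0.05 (Vcan), against 17.6% of all genes, and DESeq2's Wald test called 1 member, Vcan, against 2.79% of its genes (1 with the block, Vcan, against 6.85%). With the replicate number as a block, edgeR called 1 of the 9 members, again Vcan, against 5.83% of all genes. Without a threshold on the fold, 2 members had an adjusted p under 0.05 with the block in edgeR, Vcan and Matn3, against 23.1% of all genes. In DESeq2 with the block there were 5, Vcan, Matn3, Acan, Hapln1 and Comp, against 25.8% of its genes. The median log2 fold change of the 9 members was 0.32 without and 0.41 with the block, beside -0.021 and -0.010 over all genes tested. Over the same 9 members without the block it was -0.12 without siNC replicate 2, -0.12 without siPkm2 replicate 1, 0.096 without siPkm2 replicate 3, 0.68 without siPkm2 replicate 2 and 0.25 with replicate 2 of both groups left out. In the last of these fits 0 members were called, against 3.34% of the genes tested.

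Vcan (ENSMUSG00000021614, GRCm38 chr13:89655312-89742509, minus strand) was at 9.14, 27.3 and 26.9 TPM in siNC replicates 1, 2 and 3, and at 30.9, 68.7 and 65.7 TPM in siPkm2 replicates 1, 2 and 3. Every siPkm2 library was above every siNC library, which held for 12% of all tested genes. The ratio within pairs was 3.81, 2.62 and 2.62 in CPM. The log2 fold change was 1.49 (standard error 0.44, 95% interval 0.42 to 2.56, adjusted p = 0.180, edgeR). The replicate block gave 1.57 (standard error 0.14, 95% interval 1.22 to 1.91, adjusted p = 0.0109, edgeR). Permuting the 6 libraries exactly, two-sided, gave p = 0.1, the smallest that 3 against 3 allows. Leaving out any single library kept the log2 fold change between 1.16 and 1.77. With replicate 2 of both groups left out it was 1.54 (adjusted p = 0.161, edgeR without the block) and 1.64 with the block (adjusted p = 0.00039, edgeR). GENCODE lists 9 transcripts of Vcan, and the counts do not separate them. The antisense transcript Gm4117 overlaps Vcan and was listed at 38 to 104 counts a library, and whether counting used strand is not given.

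Acan (ENSMUSG00000030607, chr7:79053483-79115099, plus strand) was at 655, 66.7 and 708 TPM in siNC replicates 1, 2 and 3, and at 864, 129 and 873 TPM in siPkm2. The siPkm2 libraries were above the siNC libraries of the same number, and replicate 2 was low in both groups. The ratio within pairs was 1.32, 2.02 and 1.27 in CPM. The log2 fold change was 0.40 (standard error 1.01, 95% interval -2.01 to 2.82, adjusted p = 0.881, edgeR). The replicate block gave 0.58 (standard error 0.17, 95% interval 0.17 to 1.00, adjusted p = 0.0567, edgeR), and DESeq2 with the block gave 0.59 (adjusted p = 0.00285). Without the block it turned to -0.12 without siNC replicate 2, and was 0.36 (95% interval -0.024 to 0.75) with replicate 2 of both groups left out.

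Hapln1 (ENSMUSG00000021613, chr13:89539796-89611652, plus strand) was at 130, 28.3 and 124 TPM in siNC replicates 1, 2 and 3, and at 168, 44.3 and 131 TPM in siPkm2. The pattern over libraries resembled that of Acan, with a smaller drop in replicate 2. Its ratio within pairs was 1.29, 1.64 and 1.12 in CPM, and its log2 fold change was 0.32 without the block (95% interval -1.38 to 2.02, adjusted p = 0.862) and 0.41 with it (95% interval 0.090 to 0.73, adjusted p = 0.0705), both by edgeR. DESeq2 with the block gave 0.42 (adjusted p = 0.0221), and edgeR with replicate 2 of both groups left out, without the block, 0.26 (95% interval -0.24 to 0.77). Hapln1, whose 3′ untranslated region holds the siPkm2 #2 and #3 sites, was higher in siPkm2 in all 3 pairs, and the part of these sites was not tested. The TPM of Hapln1 over that of Acan was 0.198, 0.425 and 0.175 in siNC replicates 1, 2 and 3, and 0.195, 0.345 and 0.150 in siPkm2, so link protein was nearest to aggrecan in replicate 2 of both groups.

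Comp (ENSMUSG00000031849, chr8:70373558-70382066) was at 989, 304 and 1320 TPM in siNC replicates 1, 2 and 3, and at 1390, 503 and 1315 TPM in siPkm2. Pairs 1 and 2 were higher in siPkm2 and pair 3 differed by 1.05-fold in CPM. The log2 fold change was 0.33 (95% interval -1.18 to 1.84, adjusted p = 0.838) without the block and 0.44 (95% interval 0.045 to 0.84, adjusted p = 0.0968) with it, by edgeR. DESeq2 with the block gave 0.45 (adjusted p = 0.0273), and edgeR with replicate 2 of both groups left out, without the block, 0.25 (95% interval -0.18 to 0.68).

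The matrilins did not move alike. Matn1 (ENSMUSG00000040533, chr4:130944385-130955475), the cartilage matrix protein, was at 1230, 76.5 and 1550 TPM in siNC replicates 1, 2 and 3, and at 1215, 130 and 1630 TPM in siPkm2. The ratio within pairs was 0.971, 1.78 and 1.11 in CPM. Its log2 fold change was 0.087 without the block (95% interval -2.76 to 2.93) and 0.31 with it (95% interval -0.16 to 0.78, adjusted p = 0.267, edgeR). With replicate 2 of both groups left out, without the block, it was 0.053 (95% interval -0.44 to 0.54).
Matn3 (ENSMUSG00000020583, chr12:8947929-8972028), which forms heteromers with Matn1, was at 20.9, 0.98 and 10.3 TPM in siNC, and at 43.6, 1.16 and 18.8 TPM in siPkm2. It was higher in siPkm2 in each pair, by 2.06-fold, 1.24-fold and 1.93-fold in CPM, and the groups overlapped with or without replicate 2. The log2 fold change was 1.00 without the block (adjusted p = 0.762) and 0.86 with it (standard error 0.15, 95% interval 0.48 to 1.24, adjusted p = 0.0206), by edgeR, so that Matn3 was called in neither fit. Without the block it was 1.00 with replicate 2 of both groups left out (95% interval -0.38 to 2.38), and -0.14 without siPkm2 replicate 1. Matn3 holds the siPkm2 #2 and #3 sites and the siNC site in its 3′ untranslated region, and their part was not tested.
Matn4 (ENSMUSG00000016995, chr2:164389393-164405160) was at 33.9, 8.98 and 105 TPM in siNC, and at 21.5, 12.7 and 40.2 TPM in siPkm2. Unlike Matn3 it was lower in siPkm2 in pairs 1 and 3, by 1.61-fold and 2.48-fold in CPM, and higher by 1.49-fold in pair 2. The log2 fold change was -0.94 without the block (standard error 0.86, adjusted p = 0.623) and -0.51 with it (adjusted p = 0.319), by edgeR. With replicate 2 of both groups left out and with the block, a fit chosen after seeing the data, it was called lower at -1.02 (adjusted p = 0.00258, edgeR; 10.8% of all genes were called in that fit). Without siNC replicate 3 its sign turned, to 0.20. Rbpjl overlaps Matn4 on the other strand and was listed at 35 to 196 counts a library.

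Cilp and Cilp2 were at the lower end of detection. Cilp (ENSMUSG00000042254, chr9:65265180-65280605) had 4, 7 and 29 counts in siNC replicates 1, 2 and 3, and 2, 7 and 10 counts in siPkm2, and it was the only member that did not pass the filter on low counts. Its TPM was 0.06, 0.12 and 0.51 in siNC and 0.03, 0.11 and 0.17 in siPkm2. DESeq2 gave a log2 fold change of -1.04 (adjusted p = 0.684), and edgeR with replicate 2 of both groups left out, without the block, -1.35 (95% interval -4.38 to 1.68). Cilp2 (ENSMUSG00000044006, chr8:69880369-69887687) had between 35 and 99 counts in siNC and between 38 and 59 counts in siPkm2, and its log2 fold change was -0.25 (95% interval -1.44 to 0.94, adjusted p = 0.842, edgeR), and -0.34 with replicate 2 of both groups left out.
Snorc (ENSMUSG00000026258, chr1:87470271-87475482) was at 430, 52.2 and 402 TPM in siNC replicates 1, 2 and 3, and at 450.3, 74.5 and 399.5 TPM in siPkm2. Replicates 1 and 3 of both groups lay close together, and only replicate 2 was apart. The log2 fold change was 0.030 without the block (95% interval -2.16 to 2.22) and 0.17 with it (95% interval -0.18 to 0.53, adjusted p = 0.398, edgeR). With replicate 2 of both groups left out it was -0.019 (95% interval -0.52 to 0.48).

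**Figure D4:**
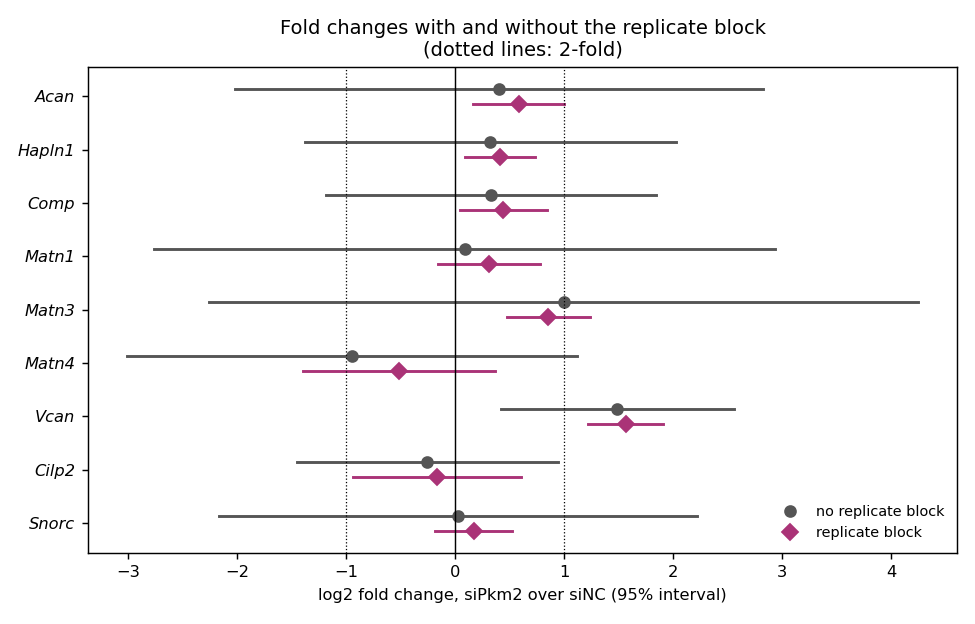
Log2 fold change of siPkm2 over siNC with its 95% interval for the 9 members tested, from edgeR fits without (grey circles) and with (purple diamonds) the replicate block; dotted lines mark a 2-fold change. The block narrows every interval, and only the intervals of Vcan exclude 0 in both fits.

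**Figure D5:**
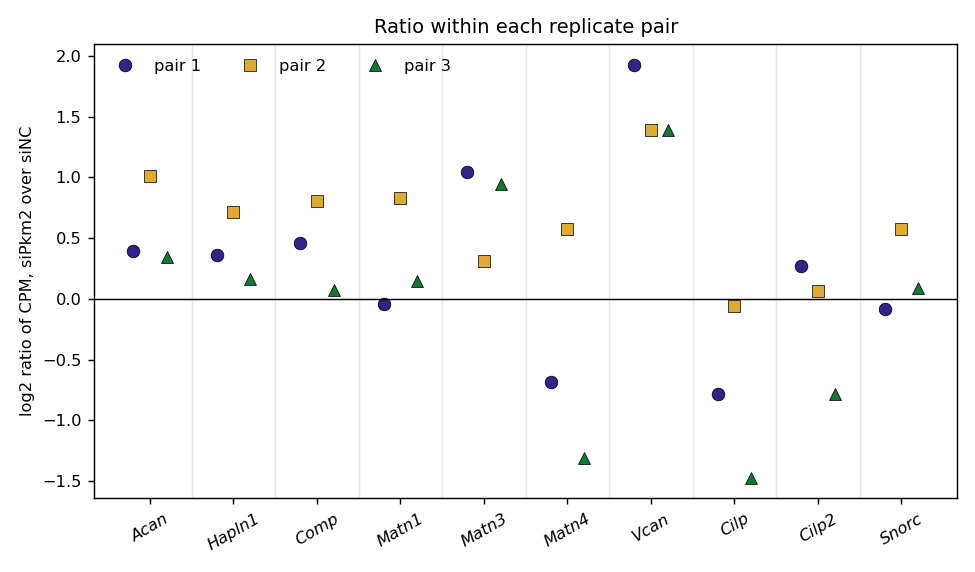
Log2 ratio of CPM, siPkm2 over siNC, within replicate pairs 1, 2 and 3 for each of the 10 genes. The 3 points of Vcan lie highest, those of Acan, Hapln1, Comp and Matn3 lie above 0, and those of Matn4 fall on both sides of 0.

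The genes with which these proteins act were described from lists. Of 10 relatives in the lectican, link protein, matrilin and thrombospondin families, 8 were tested, 2 with positive and 6 with negative log2 fold changes, and the median was -0.75, beside -0.021 over all genes. None was called without the block, and 2 were called lower with it, against 5.83% of all genes called in either direction. The siNC libraries held 19000, 14310 and 20220 CPM of Thbs1, a matricellular relative of Comp, and the siPkm2 libraries 9837, 6178 and 8726 CPM, with no overlap. How many of all genes were lower without overlap was not counted, while 12% were higher without overlap. The log2 fold change of Thbs1 was -1.11 (adjusted p = 0.185) without and -1.12 (adjusted p = 0.0134) with the block, by edgeR. Thbs4, found in tendon and muscle matrix, was called with the block as well, at -1.45 (adjusted p = 0.0144, edgeR), and its groups overlapped.

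Of the 14 cartilage matrix partners (collagens II, IX and XI, Chad, Ucma and others), all were tested, 8 positive and 6 negative, with a median of 0.21. With the block 1 of the 14 was called, against 5.83% of all genes. It was Epyc, a small leucine-rich proteoglycan of growth cartilage. The siNC libraries held 129, 103 and 109 CPM of it and the siPkm2 libraries 320, 277 and 243 CPM, without overlap, as for 12% of all tested genes (log2 fold change 1.30, adjusted p = 0.0738 without and 0.00942 with the block, edgeR). Col2a1, the chain of the main cartilage collagen, had 36070, 8526 and 34890 CPM in the siNC libraries, and 28380, 11450 and 27890 CPM in the siPkm2 libraries.
Of the 14 genes of chondroitin sulfate assembly, 11 were positive and 3 negative, with a median of 0.23. Against 5.83% of all genes called with the block, 1 of the 14 was called. It was Slc26a2, the sulfate transporter that supplies proteoglycan sulfation, at 112, 24.6 and 103 CPM in siNC and 258, 50.7 and 202 CPM in siPkm2 (log2 fold change 1.09, adjusted p = 0.494 without the block, and 1.07, adjusted p = 0.00942 with it, edgeR), and its groups overlapped. Leaving out 1 library moved it between 0.65 and 1.53, the lowest without siPkm2 replicate 1 and the highest without siPkm2 replicate 2.
Of the 9 proteases and their inhibitor, 6 were positive and 3 negative, with a median of 0.089, and none was called in either fit. The log2 fold changes furthest from 0 were -0.96 for Adamts9 and 0.93 for Adamts15, both aggrecan-cleaving enzymes (adjusted p = 0.514 and 0.593 without the block, edgeR). With the block 2 of the 9 had an adjusted p under 0.05, both under 2-fold, against 23.1% of all genes. They are the aggrecanases Adamts4 at 0.65 (adjusted p = 0.0142) and Adamts5 at 0.75 (adjusted p = 0.0333), by edgeR, named after their values were seen. Both were higher in all 3 pairs, as were 30.5% of all tested genes.
Of the 5 transcription factors, 1 was positive and 4 negative, with a median of -0.16, and none was called in either fit. Runx2 was at -0.43 and Sox5, which acts with Sox9 on Acan and the matrilin genes, at -0.40 (adjusted p = 0.253 and 0.262 without the block, edgeR), and the groups of both genes did not overlap in CPM. The share of all genes lower in siPkm2 without overlap was not counted, while 12% were higher without overlap. With the block Sox5 had an adjusted p of 0.0261 at -0.41 (edgeR). In log2(TPM + 1) with limma Sox5 was at -0.16 (adjusted p = 0.755), and in TPM it was lower in siPkm2 in only 2 of the 3 pairs. Of the chondrocyte markers 4 were positive and 5 negative, with a median of -0.092.

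Among the inflammatory genes, 9 of 10 were tested and 6 were positive, with a median log2 fold change of 0.24, and with the block Il6 (2.62, adjusted p = 0.0426) and Cxcl1 (1.11, adjusted p = 0.0336) were called higher by edgeR. All 10 interferon-stimulated genes were positive, with a median of 1.33, and with the block Ifit1 (3.91, adjusted p = 0.0445) and Mx1 (2.55, adjusted p = 0.0161) were called higher by the same test. Calls with the block made up 5.83% of all tested genes. With replicate 2 of both groups left out, edgeR without the block called 8 of the 10 interferon-stimulated genes, with a median of 4.81, and 1 of the 9 tested inflammatory genes, Il6. That fit called 3.34% of all tested genes, whose median was -0.031. In the same fit Thbs1, Epyc and Slc26a2 were called. With the block, edgeR called 2 of the 5 synovial lining markers higher, Prg4 and Pdpn, and 1 of the 2 tested muscle markers, Des. It called 1 of the 3 tested osteoblast markers lower, Ibsp, which is also in the hypertrophy list. No chondrocyte, dedifferentiation, macrophage or endothelial marker was called. The share called over all tested genes was 5.83%. In the synovial lining and muscle lists other markers went the other way, while all 3 tested osteoblast markers were negative. In that fit 4 of the 5 synovial lining markers were positive and 1 negative. Of the 2 muscle markers tested, Acta1 was negative (log2 fold change -1.57, adjusted p = 0.0545, edgeR). The part of these lists in the Vcan difference was not tested.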

How the data were processed

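Gene expression was measured by RNA-seq in chondrocytes given siNC or siPkm2, 3 libraries each. The authors deposited estimated counts per gene, not scaled between libraries and fractional for 33.1% of the values above 0, and TPM, which the authors scaled within each library. The submitters' processing notes name edgeR and the mm9 build. The aligner, counting method and annotation are not given in the sources used here. The table also holds the authors' comparison of the groups (fold change, log2 fold change and p-values), which was not used.

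After rounding, the estimated counts were fitted with edgeR 4.0.16 (R 4.3.3). The filterByExpr step left 15269 genes, which were scaled by TMM factors and put through the quasi-likelihood test, and p-values were adjusted by Benjamini-Hochberg across them. Calls needed more than a 2-fold change with the adjusted p below 0.05, as in the study's methods. Standard errors were taken as the log2 fold change over the root of the quasi-likelihood F. Fits were tested on simulated data. Alternatives were other scaling factors and filters, DESeq2 1.42.0, limma 3.58.1 on log2(TPM + 1), no threshold on the fold, each library or replicate 2 of both groups left out, and the replicate number as a block. Both groups carry the replicate numbers 1, 2 and 3. The numbers pair the libraries: libraries with the same number deviated together from their groups (r = 0.716, 0.794 and 0.72 over genes), and r was at most 0.217 for different numbers.

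The members and lists were chosen with earlier results of these data known. All 10 members are named. In the lists of family relatives, cartilage matrix partners, chondroitin sulfate assembly, proteases and inhibitor, transcription factors, inflammatory genes and interferon-stimulated genes, genes called without or with the block are named (at most 4 a list, by the size of the log2 fold change), or, where none was called, the 2 with the largest log2 fold change. The 5 genes closest to Acan were those with the highest Pearson correlation of log2(CPM + 0.5). Positions and transcripts are from GENCODE M21 on GRCm38, matched by Ensembl identifier, and all 10 members matched.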

Additional observations from a re-analysis of the deposited data

How the results depend on the processing

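No member was called under RLE or upper-quartile factors, without a filter, with at least 10 counts in every library, with limma on TPM, without a fold threshold, without any single library, or with replicate 2 of both groups left out. DESeq2's Wald test called 1 member (Vcan), and the replicate block called 1 (Vcan) in edgeR and 1 in DESeq2. With no fold threshold the block gave 2 in edgeR (Vcan and Matn3) and 5 in DESeq2 (also Acan, Hapln1 and Comp), and the edgeR block with replicate 2 of both groups left out gave 2 (Vcan and Matn4), all chosen after seeing the data. At the 2-fold threshold with all 6 libraries, the block changed no other call of a member. The median log2 fold change of the members ran from -0.29 to 0.649 with each library left out, where some fits also tested Cilp, and from -0.119 to 0.682 over the same 9 members. Leaving out 1 library gave -0.115 to 0.896 for Acan, -0.119 to 0.72 for Hapln1, -0.0858 to 0.709 for Comp, -0.46 to 0.615 for Matn1, -0.14 to 2.03 for Matn3, -1.48 to 0.199 for Matn4, -0.556 to 0.281 for Cilp2 and -0.473 to 0.586 for Snorc. Il6, Cxcl1 and Mx1 turned to -0.86, -4.11 and -0.205 without siPkm2 replicate 2, and were 6.94, 6.32 and 5.67 without siNC replicate 2. Snorc was -0.0434 with upper-quartile factors, -0.0187 with replicate 2 of both groups left out, and -0.00853 with the block too. The cause was not tested. Of the 160 values of members under alternatives, 139 kept direction and side of the threshold, 5 gained a call and 16 changed sign. Counts were lowest for Cilp and Cilp2, and Matn3 had 41 and 53 in the replicate 2 libraries.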

Other observations

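Each of the 4 lectican genes lay next to a link protein gene in GENCODE M21 on GRCm38, with no protein-coding gene between them. Acan and Hapln3 are separated by 2 bases on chromosome 7, and Acan reached 3376 CPM while Hapln3 stayed at or below 0.876 CPM. Vcan and Hapln1 lie 43.7 kb apart on chromosome 13 and both were expressed, but Hapln1 was lowest in replicate 2 of each group and Vcan was not. Bcan and Hapln2 (21.5 kb apart) reached at most 1.58 and 0.131 CPM, and Ncan and Hapln4 (2.22 kb apart) at most 0.744 and 9.63 CPM.

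The 5 tested genes whose log2 CPM followed that of Acan most closely over the 6 libraries were Itih5l-ps (Pearson r = 0.9994), Sec22a (0.9988), Herpud1 (0.9985), Gcat (0.9974) and Cyp2c23 (0.9973). These values describe the likeness and rest largely on the drop in replicate 2: over the 4 libraries of replicates 1 and 3, r was 0.973, 0.925, 0.92, 0.818 and 0.912 in the same order. Gcat here is ENSMUSG00000116378, and another entry of that name, ENSMUSG00000006378, was not among the 5. Cyp2c23 lay between 0 and 1.14 CPM, near the floor of detection.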
